A study of Mus musculus with 8 samples.

Results

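The genes of the NRF2 and antioxidant response considered here were measured in microglia of the mouse lateral geniculate nucleus (LGN), the thalamic relay of the retina, after both optic nerves were crushed. They were taken by name: Nfe2l2, Hmox1, Nqo1, Gclm, Gclc, Txnrd1, Srxn1, Sod2, Prdx1 and Slc7a11. All 10 matched 1 of the 26062 Ensembl gene IDs in the count table, and all 10 passed the filter on low counts that left 17390 genes for testing. All mice were C57BL/6J, male, wild type and between 2 and 3 months old, and cells were captured on magnetic beads that bind CD11b. RNA was linearly amplified before sequencing, with 2 libraries from uninjured mice, 3 from mice 1 day after crush and 3 from mice 3 days after crush. The crush was bilateral, so the reference is a separate set of uninjured mice. CD11b is carried by microglia and by other myeloid cells. Whether each library comes from 1 mouse or several is not in the labels, and the spread that the p-values are set against may therefore be partly technical.

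NRF2, encoded by Nfe2l2, is a transcription factor that the adaptor KEAP1 and the ubiquitin ligase built on CUL3 and RBX1 keep at a low level by steady degradation. Oxidants and electrophiles modify KEAP1, NRF2 builds up, pairs with a small MAF protein and binds antioxidant response elements. BACH1 and BACH2 pair with the same MAF proteins at such elements and repress. The target genes make glutathione, recharge thioredoxin and peroxiredoxin, break down heme and supply NADPH, and in microglia they limit damage from the oxidants that these cells release. Much of this control acts on NRF2 protein, which was not measured here.

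Sod2 and Slc7a11 were the 2 members that rose 3 days after crush. Sod2, the superoxide dismutase of mitochondria, averaged 144 ± 23.6 CPM at 3 days (SD, n = 3), against 52.9 ± 3.14 CPM in uninjured mice (SD, n = 2). Slc7a11, the cystine importer of system xc-, averaged 94.4 ± 13.97 CPM at 3 days, against 36.9 ± 5.63 CPM in uninjured mice. CPM is the usual depth-scaled count, here with TMM factors that correct for library composition. A gene is called at an adjusted p under 0.05 over all genes tested. At 3 days over uninjured mice edgeR called 2.49% of all genes higher. The calls of Sod2 and Slc7a11 were both lost on leaving out 3 day replicate 3, uninjured replicate 1 or uninjured replicate 2. At 1 day edgeR called no member. Nfe2l2 and 4 of the others lay above both uninjured libraries at that time, where 14.3% of all genes did so. Hmox1 and Nqo1, both classical NRF2 targets, were called in no comparison by edgeR, DESeq2 or limma-voom.

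Letters of antioxidant response elements were looked up in the 250 bases before each start site, because they show which members carry such a sequence close by. The sequences are RefSeq's for build GRCm38.p6, and 8 of the 10 members had an entry (Hmox1 and Gclc did not). The core searched was TGACNNNGC on both strands, and TGAGNNNGC was searched as its variant. Of 32851 start-site windows, 10.2% held the core and 14.4% the variant, 23.0% either one. The core was found before Nfe2l2, Gclm, Prdx1 and Txnrd1 (1 of its 3 starts), and the variant before Srxn1 and Slc7a11. Both Srxn1 and Prdx1 have a match that overlaps TGANTCA, the letters of an AP-1 site, which 6.75% of windows held. Slc7a11 also held TGATGCAAA on each strand, the letters through which ATF4, a factor of the amino acid response, binds a CARE. That sequence was in 0.225% of windows. The stretches below read 5′ to 3′ on the strand of the gene, with the matches in capitals.
Slc7a11, chr3:50443637-50443726, minus strand (GCTTTCTCA is the variant on the opposite strand, then both TGATGCAAA matches): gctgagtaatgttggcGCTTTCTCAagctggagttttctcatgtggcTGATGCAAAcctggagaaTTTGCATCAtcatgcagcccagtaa
Gclm, chr3:122245407-122245447, plus strand: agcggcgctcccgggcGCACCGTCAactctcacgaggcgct
Txnrd1, chr10:82859098-82859138, plus strand: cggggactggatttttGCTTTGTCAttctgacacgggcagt
Srxn1, chr2:152105463-152105503, plus strand: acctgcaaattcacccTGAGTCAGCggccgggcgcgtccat
Prdx1, chr4:116685450-116685490, plus strand: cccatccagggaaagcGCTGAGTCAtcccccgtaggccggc
Nfe2l2, chr2:75704879-75704913, minus strand: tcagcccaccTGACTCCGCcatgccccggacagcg
A match is only a match of letters, and no binding was measured. Sod2 and Nqo1 held neither form in this window, which says nothing of elements farther away.

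Library totals ran from 12700098 to 17994861 counts. The uninjured pair detected 21663 and 22395 genes, the 1 day libraries 18035 to 20220 and the 3 day libraries 20632 to 21044. Microglial markers (10 of 10 tested) summed to 7796 to 10640 CPM in uninjured, 10450 to 13670 CPM in 1 day and 7587 to 9382 CPM in 3 day libraries, and 4 of the 10 were called lower at 3 days than at 1 day. Choroid plexus and ependymal markers (8 of 8 detected) summed to 849.5 and 9681 CPM in the uninjured pair, 5.45 to 112.7 CPM at 1 day and 1038 to 6580 CPM at 3 days. Endothelial markers (8 of 8) summed to 1115 and 1286 CPM, 459.5 to 595.9 CPM and 888.9 to 987.9 CPM in the same order, and mural markers (6 of 6) to 1093 and 1236 CPM, 566.6 to 633.2 CPM and 861.8 to 968.9 CPM. Among the 1 day libraries, replicate 2 had the highest neutrophil marker sum, 135.7 CPM against 44.9 and 49.5 CPM. Its monocyte marker sum was also the highest of these, 32.9 CPM against 12.5 and 16.3 CPM. Mitochondrially encoded counts made up 22.6% and 21.3% in the uninjured pair, 13.7%, 21.9% and 13.9% at 1 day, and 22.8%, 28.9% and 30.3% at 3 days.

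**Figure D1:**
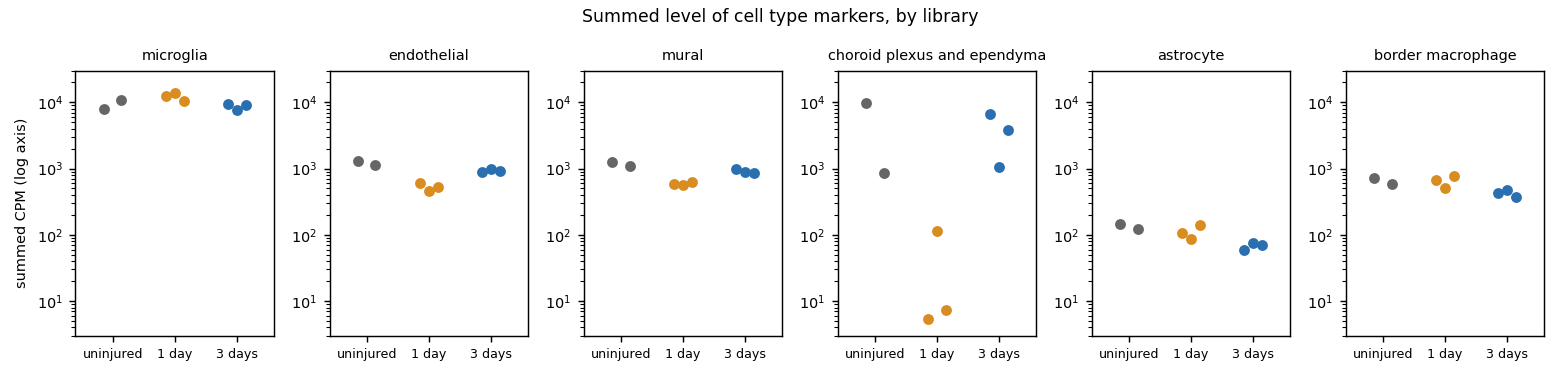
Summed TMM-scaled CPM of 6 sets of cell type markers (log axis) in each library, with 1 point per library, for uninjured mice, 1 day and 3 days. Choroid plexus and ependymal markers lie at 5.45 to 112.7 CPM at 1 day, below all 5 other libraries, and endothelial and mural markers are also lowest at 1 day.

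Levels differed widely between the members. Divided by the length of all annotated exons, Hmox1, the enzyme that cleaves heme, stood highest in uninjured mice at 237 ± 19.0 CPM per kb, followed by Nfe2l2 at 196 ± 10.3 CPM per kb (SD, n = 2 each). Prdx1, a cytosolic peroxide-reducing enzyme, was next at 61.0 ± 14.5 CPM per kb, with Srxn1, the sulfiredoxin that repairs overoxidized peroxiredoxins, at 59.9 ± 5.94 CPM per kb. These 2 overlapped between libraries. Gclc and Gclm, the catalytic and modifier subunits of the enzyme that limits glutathione synthesis, had 36.7 ± 1.76 and 12.7 ± 2.97 CPM per kb. Txnrd1, the cytosolic thioredoxin reductase, lay between them at 21.2 ± 1.87 CPM per kb. Sod2 had 5.28 ± 0.314, Slc7a11 2.65 ± 0.404 and Nqo1, a quinone reductase, 2.55 ± 2.38 CPM per kb, the last 2 with overlapping libraries. Nfe2l2 was in first place at 1 day and at 3 days, but its libraries overlapped those of Hmox1 at both times. Slc7a11 and Nqo1 stayed in the last 2 places in all 3 groups by this measure. The order depends on the length used. Without division by length, Slc7a11 averaged more than Gclm at 1 day (74.3 against 42.9 CPM) and at 3 days (94.4 against 76.8 CPM). RNA was linearly amplified, and how evenly reads cover each transcript was not tested, so levels per kb are approximate.

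**Figure D2:**
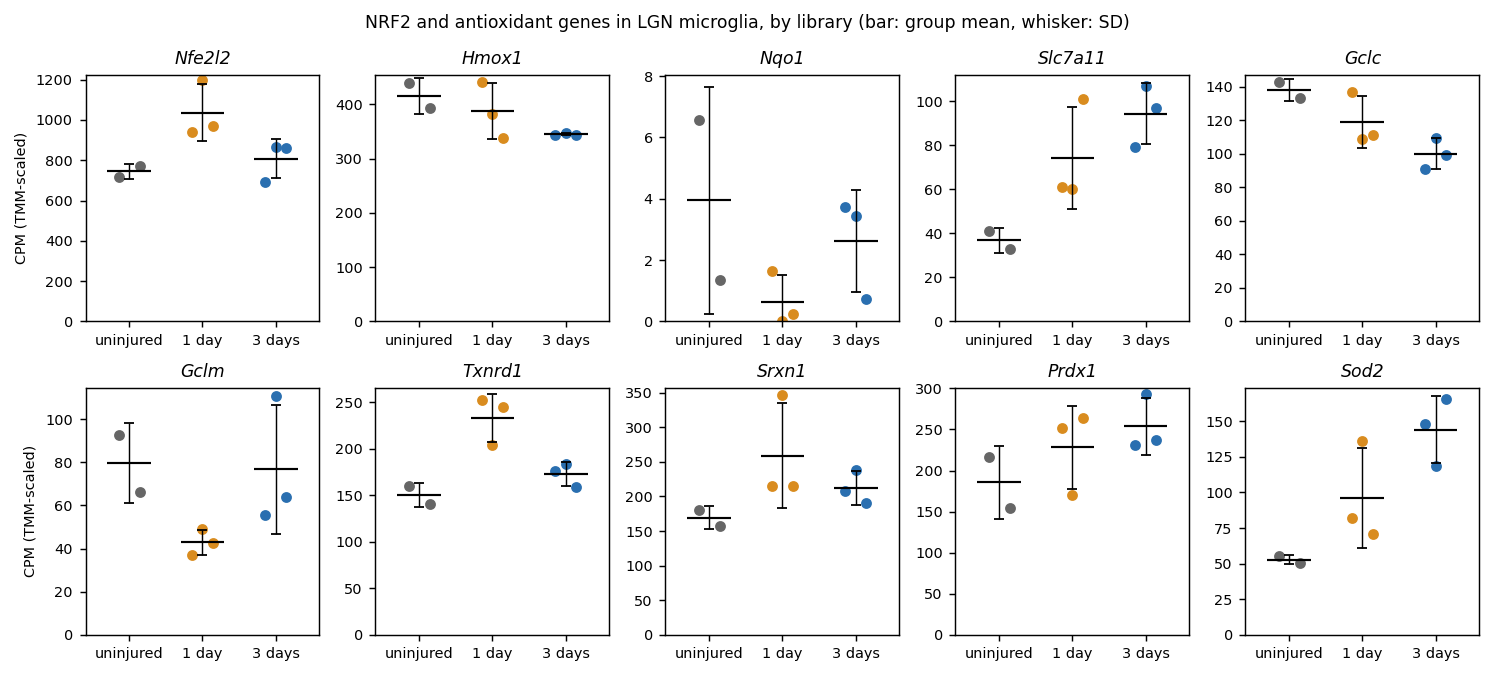
TMM-scaled CPM of each of the 10 members in each library, for uninjured mice (n = 2), 1 day (n = 3) and 3 days (n = 3), with the group mean as a bar and the SD as a whisker. Sod2 and Slc7a11 lie above both uninjured libraries in all 3 libraries at 3 days, and Gclm is lowest in the 3 libraries at 1 day.

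The transcription factor itself, Nfe2l2 (ENSMUSG00000015839), had 717 and 772 CPM in the uninjured libraries, 939, 1200 and 972 CPM 1 day after crush and 694, 864 and 862 CPM 3 days after crush. All 3 libraries at 1 day lay above all 5 others, and the 3 day libraries overlapped the uninjured pair. The log2 fold change at 1 day was 0.48 (SE 0.16), which did not pass over all genes (edgeR adjusted p = 0.156). At 3 days it was 0.12 (95% interval −0.22 to 0.45), and −0.04 when scaled by library size alone. The level at 3 days against 1 day was −0.36 on the log2 scale (SE 0.14, edgeR adjusted p = 0.115). The 3 tested genes whose log2 CPM followed Nfe2l2 most closely over the 8 libraries were Akap13 (Pearson's r 0.959), the pseudogene Oaz1-ps (0.954) and Gch1 (0.954), all measured in the same libraries with the same scaling.

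Nqo1 and Hmox1, targets often used to report NRF2 activity, had Pearson's r of −0.875 and −0.0535 with Nfe2l2 over the 8 libraries. Srxn1 had 0.795 with Nfe2l2, Txnrd1 0.612, Slc7a11 0.258 and Sod2 0.254. Gclc had −0.0625, Prdx1 −0.0723 and Gclm −0.477. These values only describe libraries of 3 groups that share scaling, and Nqo1 had low counts. Nqo1 (ENSMUSG00000003849) had 123 and 26 counts in the uninjured pair, 21, 0 and 4 at 1 day, and 57, 46 and 9 at 3 days. In CPM it had 6.57 and 1.34 in the uninjured pair, 1.64, 0 and 0.246 after 1 day, and 3.73, 3.43 and 0.726 after 3 days. The groups overlapped, and the count of 0 allows a level of up to 0.241 CPM in that library, for counting error only. At 1 day over uninjured mice the log2 fold change of −2.65 had a 95% interval of −5.35 to 0.05 (edgeR adjusted p = 0.351). At 3 days it was −0.59 (95% interval −3.19 to 2.01) over uninjured mice and 2.06 (−0.45 to 4.58) over 1 day. Choroid plexus marker sums were lowest at 1 day, as was the mean of Nqo1, and their part in the Nqo1 values was not tested. In bulk samples fewer cells of a type and less RNA per cell cannot be told apart.

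Hmox1 (ENSMUSG00000005413) had 439 and 392 CPM in the uninjured libraries, 440, 383 and 338 CPM 1 day after crush and 344, 347 and 343 CPM 3 days after crush. The 3 day libraries all lay below the uninjured pair, by a log2 fold change of −0.27 (95% interval −0.60 to 0.05, edgeR adjusted p = 0.428). At 1 day the interval was −0.43 to 0.22 around −0.10 (adjusted p = 0.838).

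Slc7a11 (ENSMUSG00000027737) brings in cystine, the precursor that limits glutathione, in exchange for glutamate. It had 40.9 and 33.0 CPM in the uninjured libraries, 61.2, 60.3 and 101.2 CPM 1 day after crush and 79.3, 106.8 and 97.1 CPM 3 days after crush. Every library after crush lay above both uninjured ones, and the 1 day and 3 day libraries overlapped. The log2 fold change over uninjured mice was 1.35 at 3 days (SE 0.265, edgeR adjusted p = 0.0106) and 1.01 at 1 day (SE 0.26, adjusted p = 0.0658). At 1 day DESeq2 called it (adjusted p = 0.0127). Between 3 days and 1 day the difference was 0.35 (95% interval −0.14 to 0.83).

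A Slc7a11 transcript contains 373 bases that match the alpha tubulin genes Tuba1b, Tuba1a and Tuba1c at 96.2%, 96.0% and 95.4% identity. The gene has 13922 exonic bases. Tuba1b averaged 174 ± 18.5 CPM at 3 days and 36.4 ± 7.63 CPM in uninjured mice (log2 fold change 2.26, SE 0.25, edgeR adjusted p = 0.000166). Tuba1c averaged 186 ± 33.4 CPM at 3 days and 65.8 ± 9.71 CPM in uninjured mice (1.502, adjusted p = 0.00924). Tuba1a averaged 45.9 ± 6.17 CPM at 3 days and 47.1 ± 8.65 CPM in uninjured mice (−0.04, adjusted p = 0.979). Slc7a11 also matches 4 pseudogenes that were counted. Gm5620 averaged 21.8 ± 8.05 CPM at 3 days and 3.61 ± 0.352 CPM in uninjured mice (2.59, edgeR adjusted p = 0.00975). Gm17383 averaged 12.6 ± 2.91 CPM and 3.31 ± 0.753 CPM (1.93, adjusted p = 0.0688). Gm14150 and Gm3756 were not tested. How many reads of the stretch were assigned to Slc7a11 cannot be seen in gene counts, and its part in the rise was not tested.

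Gclm (ENSMUSG00000028124) had 92.9 and 66.5 CPM in the uninjured libraries, 37.2, 49.0 and 42.4 CPM 1 day after crush and 55.5, 111 and 64.0 CPM 3 days after crush. The 1 day libraries lay below all 5 others. Gclm was higher at 3 days than at 1 day by 0.84 on the log2 scale (SE 0.26, edgeR adjusted p = 0.0494), just inside the threshold. That call was lost with limma-voom (adjusted p = 0.0745), DESeq2 size factors (0.0506) or library size alone (0.0576), in a fit of the 2 groups alone (0.0604) and without 3 day replicate 2, where the value was 0.48 (0.247). It was also lost without uninjured replicate 1 (0.0557) or 2 (0.0544), 1 day replicate 1 (0.126) or 3 (0.106), or 3 day replicate 3 (0.0838), and kept with DESeq2 (0.017). At 1 day against uninjured mice the log2 fold change was −0.89 (SE 0.28, adjusted p = 0.132), which DESeq2 called (adjusted p = 0.0451). At 3 days it was −0.05 (95% interval −0.66 to 0.55). Endothelial, mural and choroid plexus markers were lowest in the same 1 day libraries, and their part in the Gclm difference was not tested. Of its 6291 exonic bases, 296 are shared with Gm17494 on the opposite strand, and the strand setting of the counting is not given in the sources used here.

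Gclc (ENSMUSG00000032350) had 142.8 and 133 CPM in the uninjured libraries, 137, 109 and 111 CPM 1 day after crush and 91.1, 109.8 and 99.6 CPM 3 days after crush. All 3 day libraries lay below the uninjured pair, by a log2 fold change of −0.46 (SE 0.18, edgeR adjusted p = 0.205). The 1 day libraries overlapped both other groups, with −0.21 over uninjured mice (95% interval −0.60 to 0.17). Over the 8 libraries Gclc and Gclm had a Pearson's r of 0.0664, against 0.872 for Gclc and Hmox1, given as a description of libraries that share scaling.

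Of the thioredoxin and peroxiredoxin members, Txnrd1 (ENSMUSG00000020250) had 160 and 141 CPM in the uninjured libraries, 252, 204 and 245 CPM 1 day after crush and 176, 184 and 159 CPM 3 days after crush. The 1 day libraries lay above all 5 others, and the log2 fold change over uninjured mice of 0.64 (SE 0.17) had an adjusted p of 0.0685 with edgeR, 0.0495 with limma-voom and 0.0276 with DESeq2. Against 1 day, the 3 day level was −0.43 on the log2 scale (SE 0.15, edgeR adjusted p = 0.0714), and over uninjured mice it was 0.20 (95% interval −0.15 to 0.55). Srxn1 (ENSMUSG00000032802) had 181 and 157 CPM in the uninjured libraries, 215, 347 and 215 CPM 1 day after crush and 207, 239 and 190 CPM 3 days after crush, so that every library after crush lay above the uninjured pair. Its log2 fold changes over uninjured mice were 0.62 at 1 day (SE 0.21, adjusted p = 0.176) and 0.33 at 3 days (SE 0.21, adjusted p = 0.518). The highest value came from 1 day replicate 2, also the highest of the 1 day libraries for Nfe2l2 and Sod2. Neutrophil and monocyte marker sums were highest in that library, and the part of those cells was not tested.

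Prdx1 (ENSMUSG00000028691) had 217 and 154 CPM in the uninjured libraries, 251, 171 and 264 CPM 1 day after crush and 231, 293 and 237 CPM 3 days after crush. The 3 day libraries lay above the uninjured pair, with a log2 fold change of 0.45 (95% interval −0.003 to 0.91, edgeR adjusted p = 0.321). At 1 day it was 0.30 (95% interval −0.15 to 0.76). The pseudogenes Gm21399 and Gm7204, both in the table, match 597 bases of its transcript at 98.3% and 97.5% identity, so part of its reads may be counted elsewhere. Gm21399 averaged 2.275 ± 0.530 CPM at 3 days and 1.151 ± 0.193 CPM in uninjured mice, and Gm7204 was not tested.

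Sod2 (ENSMUSG00000006818), which is also a target of NF-kB in many cell types, had 55.1 and 50.6 CPM in the uninjured libraries, 82.1, 136 and 70.7 CPM 1 day after crush and 147.8, 119 and 165.5 CPM 3 days after crush. All 6 libraries after crush lay above both uninjured ones, and 1 day replicate 2 reached into the range of the 3 day libraries. The log2 fold change over uninjured mice was 1.45 at 3 days (SE 0.27, edgeR adjusted p = 0.00802) and 0.87 at 1 day (SE 0.26, adjusted p = 0.116). DESeq2 called it at 1 day too (adjusted p = 0.0465). Between 3 days and 1 day the difference was 0.58 (SE 0.23, adjusted p = 0.12), and 0.91 without 1 day replicate 2 (adjusted p = 0.00757). Over the 8 libraries the genes closest to Sod2 were Ap2s1 (Pearson's r 0.985), Fkbp2 (0.981) and Rpl13 (0.978).

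**Figure D3:**
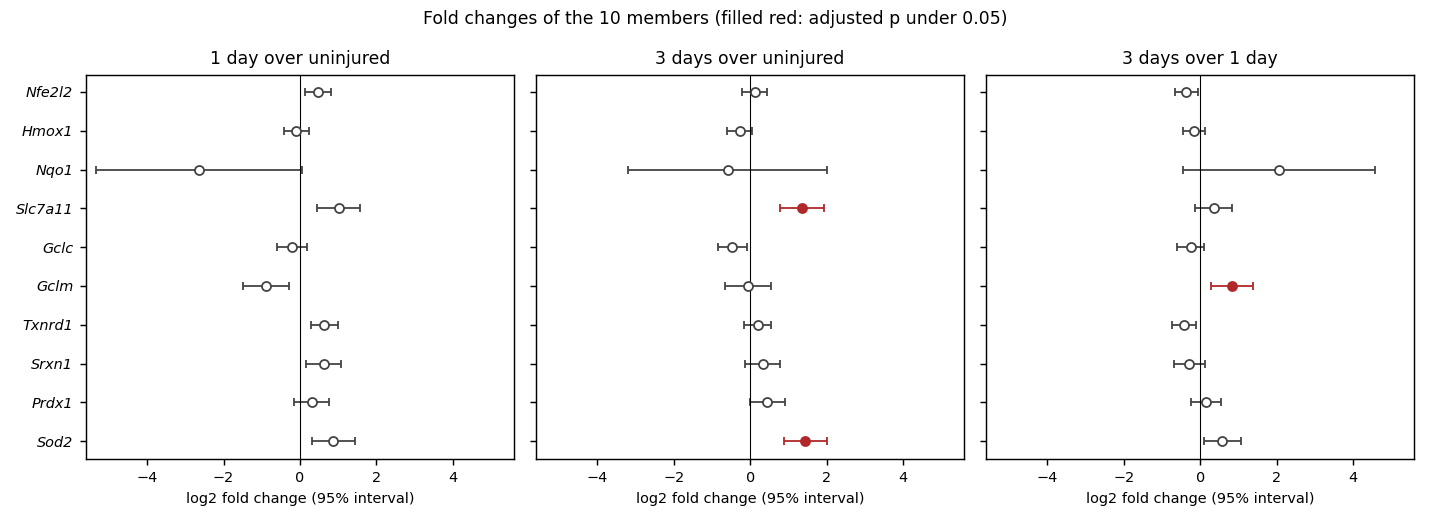
Log2 fold changes of the 10 members with 95% intervals from the edgeR fit, for 1 day over uninjured, 3 days over uninjured and 3 days over 1 day, with called genes filled in red. Slc7a11 and Sod2 are filled at 3 days over uninjured, Gclm is filled at 3 days over 1 day, and Nqo1 has the widest intervals.

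Counted together, 0 of 10 members were called at 1 day against uninjured mice by edgeR, where 1.77% of all 17390 genes were called, 0.61% higher and 1.16% lower. Without adjustment, 5 members were higher (Nfe2l2, Txnrd1, Srxn1, Sod2 and Slc7a11) and 1 was lower (Gclm) at a p under 0.05, where 7.3% and 7.47% of all genes were. DESeq2 called 3 higher (Txnrd1, Sod2 and Slc7a11) and 1 lower (Gclm), and limma-voom called Txnrd1 alone. The libraries of the 2 groups did not overlap for 6 members, 5 with the 1 day libraries above and 1 below, where 14.3% and 15% of all genes did so. The median log2 fold change of the members was 0.39, against 0.06 for all genes tested. The 10 microglial markers had a median of 0.44 in the same comparison, 6 of them higher at an unadjusted p under 0.05 and 0 called, and what part this has in the members' values was not tested.

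At 3 days against uninjured mice 2 of 10 members were called higher and 0 lower by edgeR, where it called 3.47% of all genes, 2.49% higher and 0.983% lower. DESeq2 and limma-voom also called those 2 members alone, with 1295 and 854 genes called in all. Besides Sod2 and Slc7a11, Prdx1 and Srxn1 had all 3 day libraries above the uninjured pair, and Hmox1 and Gclc had all of them below, where 20.1% and 19.3% of all genes did so. The median of the members was 0.16, against −0.002 for all genes. The Sod2 call was lost without uninjured replicate 1 (log2 fold change 1.5, edgeR adjusted p = 0.0871), uninjured replicate 2 (1.39, 0.0766) or 3 day replicate 3 (1.28, 0.0648). The Slc7a11 call was lost without uninjured replicate 1 (1.51, adjusted p = 0.0816) or 2 (1.21, 0.122), or 3 day replicate 2 (1.204, 0.0502) or 3 (1.28, 0.0717). Astrocyte markers (8 of 8) summed to 58.6 to 76.2 CPM at 3 days and 121.1 and 144.6 CPM in uninjured mice, and border macrophage markers (6 of 6) to 377 to 474.8 CPM at 3 days and 577.5 and 715.4 CPM in uninjured mice. The part of these cells in the differences at 3 days was not tested. The mitochondrially encoded share was also higher at 3 days, and with those genes left out Sod2 had 1.44 (adjusted p = 0.00722) and Slc7a11 1.35 (0.0113).

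At 3 days against 1 day 1 of 10 was called higher, Gclm, and 0 lower by edgeR, where 11% of all genes were called, 5.24% higher and 5.75% lower. The 3 day libraries lay entirely above for Gclm and entirely below for Nfe2l2 and Txnrd1, where 16.1% and 13.6% of all genes did so. At an unadjusted p under 0.05, 2 were higher and 2 lower, where 13.1% of all genes were in each direction. DESeq2 called Gclm higher (adjusted p = 0.017) and Txnrd1 lower (0.045). Leaving out 1 day replicate 2 gave 2 higher (Gclm and Sod2) and 1 lower (Txnrd1, −0.53, edgeR adjusted p = 0.0319). The 2 comparisons with uninjured mice share the same 2 uninjured libraries.

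In the wider pathway, 55 further genes were sorted into 7 roles, and all 55 were tested. Against uninjured mice, 0 rose and 1 fell at 1 day, and 1 rose and 3 fell at 3 days by edgeR, and 6 were higher and 4 lower at 3 days than at 1 day. Over all genes 0.61% rose and 1.16% fell at 1 day, 2.49% rose and 0.983% fell at 3 days, and 5.24% were higher and 5.75% lower at 3 days than at 1 day, so the single call at 1 day is near the background. The medians were 0.03, 0.21 and 0.15 on the log2 scale, against 0.06, −0.002 and 0.02 for all genes.

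**Figure D4:**
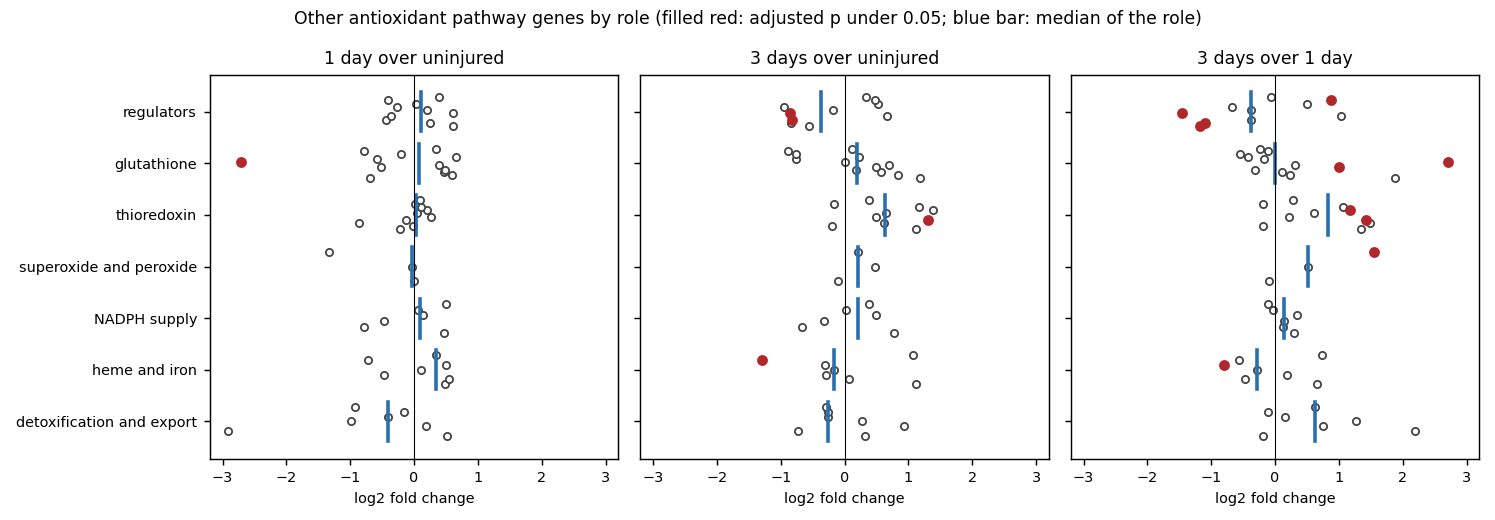
Log2 fold changes of 55 other antioxidant pathway genes by role in the 3 comparisons, with 1 point per gene, called genes in red and the median of each role as a blue bar. The red points among regulators at 3 days over 1 day are Maff, Bach1 and Bach2 below 0 and Rbx1 above it.

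Of 10 regulators of NRF2, 0 were called at 1 day by edgeR, DESeq2 or limma-voom. At an unadjusted p of edgeR under 0.05, 3 were higher and 1 lower there, where 7.3% and 7.47% of all genes were. By edgeR 2 fell at 3 days against uninjured mice, where 0.983% of all genes fell. At 3 days against 1 day 3 were lower and 1 higher, where 5.75% and 5.24% of all genes were. Maff, a small MAF partner, had 124 and 146.3 CPM in the uninjured libraries, 256, 180 and 182 CPM 1 day after crush and 90.4, 74.3 and 60.7 CPM 3 days after crush. Its 3 groups did not overlap. It fell at 3 days by 0.85 on the log2 scale against uninjured mice (edgeR adjusted p = 0.0402) and by 1.46 against 1 day (SE 0.19, adjusted p = 0.000352). The call against uninjured mice was lost without uninjured replicate 1 (adjusted p = 0.136) or 2 (0.27), or 3 day replicate 2 (0.0856) or 3 (0.169), and the call against 1 day was kept on leaving out each library in turn. Microglial marker sums were also lower at 3 days (7587 to 9382 CPM) than at 1 day (10450 to 13670 CPM), and what part that has in the regulators' values was not tested.

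Bach1, the repressor that heme releases from DNA, had 281 and 217 CPM in the uninjured libraries, 418, 307.6 and 416 CPM 1 day after crush and 174.5, 168 and 164 CPM 3 days after crush, again with no overlap between groups. It was lower at 3 days than at 1 day by 1.17 on the log2 scale (SE 0.16, edgeR adjusted p = 0.000427). Against uninjured mice the values were 0.61 at 1 day (adjusted p = 0.105) and −0.56 at 3 days (adjusted p = 0.102). DESeq2 called 4 regulators lower at 3 days against uninjured mice, Bach1 and Bach2 besides Maff and Cul3. It called 1295 of the 17390 genes there, in either direction. Bach2, its relative best known from lymphocytes, averaged 22.8 ± 2.65 CPM at 3 days and 48.7 ± 12.6 CPM at 1 day (log2 fold change −1.09, SE 0.25, adjusted p = 0.0116). Its exons share 537 bases with Bach2os on the opposite strand, and the call was lost without 1 day replicate 3 (0.0513) or 3 day replicate 3 (0.0708).

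Cul3, the scaffold of the ligase that degrades NRF2, had 85.2 ± 3.54 CPM at 3 days (SD, n = 3) and 150.0 ± 28.3 CPM in uninjured mice (SD, n = 2). Its log2 fold change was −0.82 (SE 0.20, edgeR adjusted p = 0.0353). The call was lost without either uninjured replicate and without each 3 day replicate in turn (adjusted p = 0.0602 to 0.452). Rbx1, the RING subunit of that ligase, was higher at 3 days than at 1 day (34.5 ± 1.67 against 18.9 ± 1.71 CPM, log2 fold change 0.87, adjusted p = 0.0393), and has 1 pseudogene in the table, Rbx1-ps. That call was lost with library size alone (0.0521), with no filter (0.0576) and on leaving out each library other than 1 day replicate 2 (0.0595 to 0.128).

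**Figure D5:**
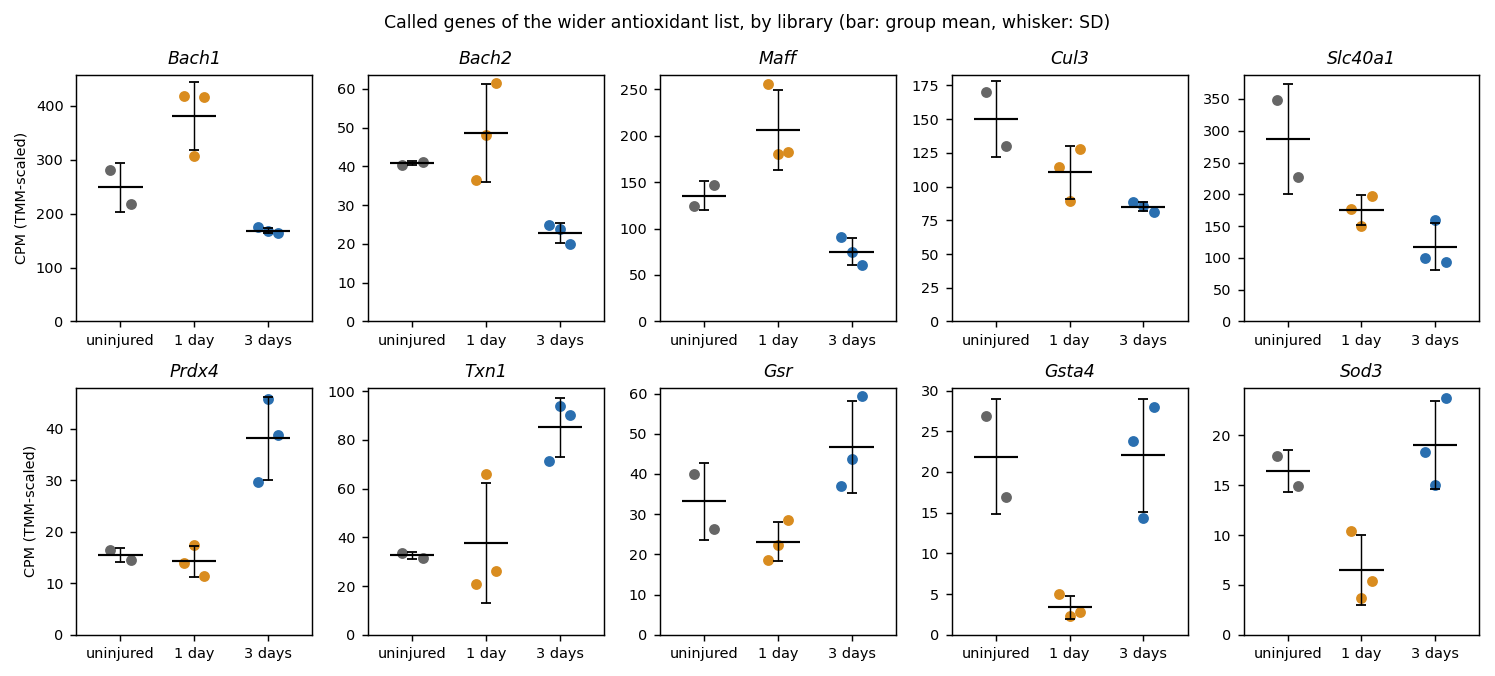
TMM-scaled CPM of 10 called genes of the wider list in each library, with the group mean as a bar and the SD as a whisker. Bach1 and Maff have their highest libraries at 1 day and their lowest at 3 days, and Gsta4 and Sod3 have their lowest libraries at 1 day.

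Of 10 thioredoxin and peroxiredoxin genes, edgeR called 1 higher at 3 days over uninjured mice and 2 higher over 1 day, with no falls. Of all genes it called 2.49% and 5.24% higher. DESeq2 and limma-voom each called 2 over uninjured mice, Prdx4 and Txn1, where they called 1295 and 854 genes in all. DESeq2 called 3 over 1 day, with Prdx3 besides, where it called 2872 genes in all. Prdx4, a peroxiredoxin of the endoplasmic reticulum, had 16.5 and 14.5 CPM in the uninjured libraries, 13.9, 17.4 and 11.46 CPM 1 day after crush and 29.8, 45.9 and 38.9 CPM 3 days after crush. The 3 day libraries lay above all 5 others, and the log2 fold changes were 1.30 over uninjured mice (SE 0.33, edgeR adjusted p = 0.0431) and 1.42 over 1 day (SE 0.29, adjusted p = 0.0061). The call over uninjured mice was lost with scaling by library size alone (adjusted p = 0.0708) and without each uninjured or 3 day replicate in turn (0.0691 to 0.309). Txn1, cytosolic thioredoxin, averaged 85.1 ± 12.03 CPM at 3 days and 37.6 ± 24.7 CPM at 1 day (1.18, SE 0.34, adjusted p = 0.0383), and 1 pseudogene, Txn-ps1, resembles it. That call was lost without uninjured replicate 2, 1 day replicate 1 or 3, or any 3 day replicate, and in the 2-group fit (0.0506 to 0.13 in all). Over uninjured mice Txn1 had 1.38 at 3 days (adjusted p = 0.0707). Prdx3, of mitochondria, had a log2 fold change of −0.87 at 1 day (adjusted p = 0.586).

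Glutathione genes had 1 fall of 12 at 1 day and 2 that were higher at 3 days than at 1 day. Of all genes 1.16% fell and 5.24% were higher in those comparisons. Gsta4, a glutathione transferase for lipid aldehydes, had 26.9 and 16.9 CPM in the uninjured libraries, 4.99, 2.25 and 2.83 CPM 1 day after crush and 23.8, 14.4 and 27.9 CPM 3 days after crush. The 1 day libraries lay below all others. The log2 fold change was −2.70 at 1 day over uninjured mice (SE 0.45, edgeR adjusted p = 0.00678) and 2.71 at 3 days over 1 day (SE 0.42, adjusted p = 0.00107). The fall at 1 day was lost as a call without uninjured replicate 1 (−2.34, adjusted p = 0.148). Gsr, glutathione reductase, averaged 46.7 ± 11.47 CPM at 3 days and 23.2 ± 4.97 CPM at 1 day (1.01, SE 0.28, adjusted p = 0.0309), a call lost without 1 day replicate 1 (0.0821) or 3 day replicate 2 (0.0657) or 3 (0.17). Glrx, glutaredoxin, had 0.83 at 3 days over uninjured mice (adjusted p = 0.227).

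Sod3, the extracellular superoxide dismutase, was higher at 3 days than at 1 day (19.0 ± 4.42 against 6.49 ± 3.46 CPM, log2 fold change 1.55, SE 0.41, edgeR adjusted p = 0.0273), and had −1.34 at 1 day over uninjured mice (adjusted p = 0.157). The call was lost without 1 day replicate 3 (0.0756) or 3 day replicate 1 (0.0724) or 3 (0.136). Aox1, an aldehyde oxidase, had −2.92 at 1 day (adjusted p = 0.133) and 2.20 at 3 days over 1 day (adjusted p = 0.117). Gsta4, Sod3 and Aox1 were lowest at 1 day, as were the endothelial, mural and choroid plexus marker sums, and the part of those cells was not tested. Sod1, the cytosolic form, had 0.48 at 3 days over uninjured mice (adjusted p = 0.364).

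Of 7 heme and iron genes, 1 fell at 3 days and 1 was lower at 3 days than at 1 day. Of all genes 0.983% and 5.75% did so. Slc40a1, ferroportin, the only known iron exporter of animal cells, had 348.5 and 226.5 CPM in the uninjured libraries, 177, 150.5 and 198 CPM 1 day after crush and 100.4, 160 and 93.1 CPM 3 days after crush. All 6 libraries after crush lay below both uninjured ones. The log2 fold change was −1.29 at 3 days (SE 0.24, edgeR adjusted p = 0.00799) and −0.71 at 1 day (SE 0.24, adjusted p = 0.157). The 3 day call was lost without uninjured replicate 1 (−0.95, adjusted p = 0.162) and without 3 day replicate 3 (−1.198, adjusted p = 0.0531). The sum of border macrophage markers was lower in all 3 day libraries (377 to 474.8 CPM) than in the uninjured pair (577.5 and 715.4 CPM). At 1 day that sum ran from 513.7 to 765.5 CPM and overlapped the uninjured pair. The part of these cells in the Slc40a1 values was not tested. Ftl1, the ferritin light chain, averaged 118 ± 9.86 CPM at 3 days and 205 ± 65.6 CPM at 1 day (−0.80, SE 0.21, adjusted p = 0.0259). Its reads are uncertain, because 5 other genes of the table, 4 of them pseudogenes, resemble it. The call was lost without 1 day replicate 1 or 3, or any 3 day replicate (0.0551 to 0.106).

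No gene of the NADPH supply (6) or of detoxification and export (7) was called by edgeR. At an unadjusted p under 0.05 NADPH supply had 2 higher at 3 days over uninjured mice and 1 higher over 1 day. Of all genes 9.21% and 13.1% were higher there. Detoxification had 1 higher and 1 lower at 1 day, where 7.3% and 7.47% of all genes were. It had 1 higher at 3 days over 1 day, where 13.1% were. Counts of 1 or 2 genes in lists of 6 or 7 are small, and whether they differ from those shares was not tested. DESeq2 called Aox1 lower at 1 day and G6pdx higher at 3 days over uninjured mice, where it called 824 and 1295 genes in all. In these 2 roles limma-voom called none. G6pdx, the entry enzyme of the pentose phosphate pathway, averaged 77.7 ± 0.545 CPM at 3 days and 45.4 ± 8.44 CPM in uninjured mice (log2 fold change 0.77, SE 0.23, adjusted p = 0.0882) and had 0.47 at 1 day (adjusted p = 0.359). All 3 day libraries lay above all 5 others. Of the 3080 exonic bases of G6pdx, 418 are shared with Ikbkg on the opposite strand, which is also in the table. Pgd, the third enzyme of that pathway, had 0.35 at 3 days over 1 day (adjusted p = 0.183), and Cbr1, a carbonyl reductase, 0.93 at 3 days over uninjured mice (adjusted p = 0.435).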

How the data were processed

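RNA-seq of CD11b-captured LGN cells was analysed from whole-number counts per Ensembl gene as the authors deposited them. FastQC, STAR, HTSeq and mm9 are named per the submitters' processing notes. Which versions, annotation and strand option they used is not given in the sources used here. All 8 columns carried a sample, and 25925 of 26062 IDs matched a symbol (GENCODE M21, which is GRCm38 and gave names and exon lengths only). IDs without one held 0.127% of counts. Counts were filtered with filterByExpr, scaled by TMM and fitted over all 3 groups with the quasi-likelihood test of edgeR 4.0.16 (R 4.3.3), with Benjamini-Hochberg adjustment over 17390 genes. DESeq2 1.42.0 and limma-voom (limma 3.58.1) were alternatives, besides other scalings and filters, a replicate block, 2-group fits, leaving out each library and, chosen after seeing the data, leaving out mitochondrially encoded genes. On simulated data most 2-fold and many 4-fold changes were missed. The share of false calls exceeded the threshold in both comparisons of 3 day libraries. Similar transcripts were found with blastn 2.17.0 (at least 95% identity over 200 bases). Library pairs within groups differed by 31.4 to 64.8 chi-square units per degree of freedom, so each library counts once. No technical batch could be separated from the labels. The members and lists were chosen with earlier results of these data known. Wider genes are named where called, or as the smallest p of their role.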

Additional observations from a re-analysis of the deposited data

Results flagged for a closer look

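Gclm, the modifier subunit of the glutathione synthesis enzyme, passed the direct test between its effects at the 2 times only narrowly. Its level at 3 days over 1 day was 0.84 on the log2 scale (SE 0.26, edgeR adjusted p = 0.0494). It averaged 76.8 ± 29.8 CPM at 3 days and 42.9 ± 5.91 CPM at 1 day (SD, n = 3 each), and all 3 libraries at 3 days lay above all 3 at 1 day. The call was lost with limma-voom (0.776, adjusted p = 0.0745), DESeq2 size factors (0.0506), library size alone (0.0576) and a fit of the 2 groups (0.0604), and without 6 of the 8 libraries in turn (0.0544 to 0.247). Endothelial, mural and choroid plexus marker sums were lowest in the same 1 day libraries, and their part was not tested.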

How the results depend on the processing

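Of the members' fold changes under the alternatives, 475 of 510 kept direction and call, 18 lost a call, 10 gained one and 7 reversed. The cause of each loss, gain or reversal was not tested. Most of the 475 had no call in either fit. The main edgeR fit called only 2 members at 3 days over uninjured mice and 1 at 3 days over 1 day. All 18 losses fell on those calls. At 1 day against uninjured mice DESeq2 called 3 members higher and 1 lower, limma-voom 1 higher, and the fit with no filter 1 higher and 1 lower. Over all genes DESeq2 called 824 there, 1295 at 3 days against uninjured mice and 2872 at 3 days against 1 day, where edgeR called 308, 604 and 1912. Fits of 2 groups gave 110 and 1345 for the comparisons with uninjured mice. Of the wider list DESeq2 called 2 at 1 day and 8 at 3 days, and the 2-group fit 8 at 3 days. At 3 days against 1 day limma-voom, DESeq2 size factors, library size alone, the replicate block and the 2-group fit all called 0 members higher, and DESeq2 called 1 lower. Leaving out 1 library at a time gave 39 to 368, 108 to 982 and 747 to 2362 genes in the 3 comparisons, the lowest without uninjured replicate 1 (39 and 108) and without 3 day replicate 3 (747), the highest without 1 day replicate 3 (368) and 1 day replicate 2 (982 and 2362). It gave 0 to 1, 0 to 6 and 4 to 14 genes of the wider list, 0, 0 to 2 and 0 to 2 members higher, and 0, 0 and 0 to 1 members lower.

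The labels do not say whether replicate numbers pair the libraries. Deviations from group means correlated at −0.0599 to 0.0906 between libraries of the same number. With 2 or 3 libraries per group those correlations cannot settle the question. Replicate numbers were used as a block in an alternative fit. With them as a block, 301, 424 and 1700 genes were called, 2 of the wider list at 3 days against uninjured mice (not Maff, adjusted p = 0.0756, or Prdx4, 0.0761), and not Rbx1 (0.0611) or Gclm (0.0612) at 3 days against 1 day, and Nqo1 at 3 days turned to 0.303 on the log2 scale. At 3 days over uninjured mice Nfe2l2 was −0.043 with library size alone. Leaving out 1 library, Nqo1 there ranged over −1.32 to 0.961 and Gclm over −0.467 to 0.201, and Prdx1 at 3 days over 1 day over −0.026 to 0.263. Library size alone moved the median of all genes to −0.056 at 1 day and −0.153 at 3 days, with 46 higher and 233 lower calls at 1 day (TMM 106 and 202) and 317 and 244 at 3 days (TMM 433 and 171). Low counts limit Nqo1, whose intervals are the widest of the members.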
